A study of Mus musculus with 17 samples.

Results

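The interaction of Pirb genotype and tissue was measured on 12 of the 17 arrays of the series, 3 in each of 4 groups of sorted mouse eosinophils. The quantity is the knockout minus wildtype difference in the esophagus minus the same difference in bone marrow. All 12 arrays came from CC10-IL13Tg mice given doxycycline (Dox), and the arrays of mice without Dox were not part of it. The groups were esophagus of CC10-IL13Tg/Pirb-/- mice, esophagus of littermate CC10-IL13Tg/Pirb+/+ mice, and bone marrow of the same 2 genotypes. Mice of both sexes were 6 to 8 weeks old, and Dox was given in the food for 2 weeks to switch on the IL-13 transgene, per the labels' protocols. CC10 is a secretory protein of airway epithelium whose promoter drives the transgene, and mice of all 4 groups carried it. Cells were sorted as CD45+, SiglecF+ and CCR3+ after collagenase digestion of the esophagus or passage of the marrow through a needle. The tissues therefore differ in how cells were released as well as in where the cells were. No label says whether arrays of a group came from separate animals, so p-values refer to the spread among arrays only, and that spread may be technical.

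Eosinophils are granulocytes that mature in the marrow and enter tissues, where IL-13, a cytokine of allergic inflammation, induces the chemokines that draw them in. PIR-B, the protein of Pirb, is an inhibitory receptor of myeloid and B cells. Its cytoplasmic tail carries ITIM motifs, which recruit phosphatases such as SHP-1 and so dampen signals from receptors that act through ITAM adaptors and kinases. The interaction asks whether the loss of such a receptor went with another expression difference in eosinophils of the inflamed esophagus than in eosinophils of the marrow of mice under the same treatment.

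Values are log2 distances of an array from the middle array of the same gene, because each probe set was centred before deposit. They compare arrays for 1 gene and do not give how bright a gene was, so levels of different genes were not compared. The bulk RNA of a sort cannot tell fewer cells of a type from less RNA per cell. Array medians lay between -0.05 and 0.13. Single values deviated from their group mean with an SD of 0.146 to 0.179 in marrow arrays and 0.178 to 0.315 in esophageal arrays. Wildtype esophagus replicate 1 had a mean correlation across genes of 0.593 with its own group and of 0.704 with the knockout arrays of the same tissue, so counts are also given without it.

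More genes were called between knockout and wildtype in the esophagus than in the marrow, and the called interactions were all positive. Of 22180 genes tested, 5 had an interaction at an adjusted p under 0.05 in limma (0.0225% of genes), and all were positive. They were Parp6, Tgfbi, Suz12, Ogfr and Hspa9, and in each the esophageal difference was the larger part. The number of negative interactions called was 0 (0%). At an unadjusted p under 0.05 there were 1979 genes (8.92%), of which 782 were positive (3.53%) and 1197 negative (5.4%). The genotype difference within the esophagus passed in 369 genes (1.66%), with 239 higher (1.08%) and 130 lower (0.586%) in knockout, and 5348 at an unadjusted p under 0.05 (24.1%). Within marrow it passed in 0 genes (0%), with 726 at an unadjusted p under 0.05 (3.27%). The fit pools the spread of both tissues while esophageal arrays varied more than marrow arrays, so these counts do not compare the tissues evenly. With weights per tissue the esophageal count was 48, with a covariate of Y-linked genes 9 and after quantile normalization 1. The marrow count was 0 in each.

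**Figure D1:**
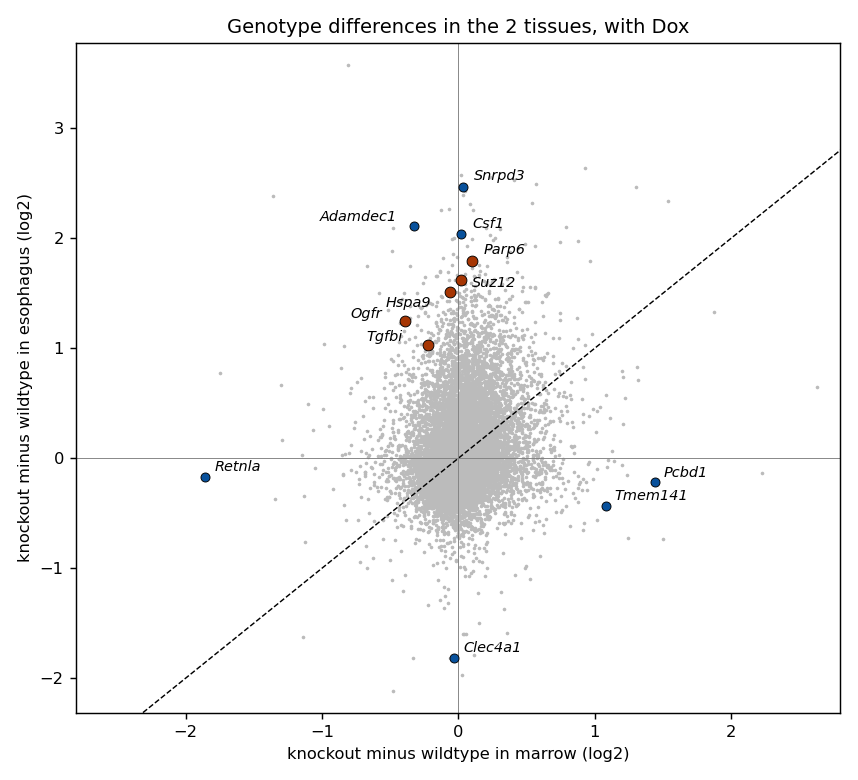
Each grey point is 1 of 22180 genes, with the knockout minus wildtype difference in marrow on the horizontal axis and in the esophagus on the vertical axis, both in log2 units and with Dox. Red points are the 5 genes with a called interaction and blue points are genes described in the text whose interaction did not pass. The dashed line marks an interaction of 0. The cloud is taller than it is wide, with an SD of 0.348 in the esophagus and 0.176 in marrow.

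Over all genes the interaction had a median of -0.07 and an SD of 0.354, and 35.4% of genes were positive. The difference in the esophagus was larger in size than that in marrow for 74.5% of genes. Of the 782 genes positive at an unadjusted p under 0.05, 682 (87.2%) had a difference at that level in the esophagus alone and 42 (5.37%) in marrow alone. Among the 1197 negative genes these were 936 (78.2%) and 126 (10.5%). Over all genes the 2 classes held 23.1% and 2.29%.

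The same quantity can be read as how the step from marrow to esophagus differed between genotypes. That step passed in 7117 genes in wildtype (32.1%) and in 3655 in knockout (16.5%). Array medians were 0.02, 0.13 and 0.10 in wildtype esophagus and -0.007, -0.012 and 0.02 in knockout esophagus. In marrow they lay between -0.049 and 0.0008. The step counts were not repeated after centring or normalization, and the part of this shift in them was not tested. The 782 positive genes had a median of 0.12 in wildtype marrow, 0.05 in knockout marrow, -0.34 in wildtype esophagus and 0.31 in knockout esophagus. In wildtype 70.6% of them were lower in the esophagus than in the marrow, and in knockout 36.2% were, while over all genes these shares were 30.0% and 36.4%. For the 1197 negative genes the medians were -0.07, -0.03, 0.24 and -0.05 in the same order. These medians describe genes chosen by the interaction itself and are not a test.

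The 5 called genes divide by their wildtype pattern. Parp6, Suz12, Hspa9 and Ogfr were lower in esophagus than in marrow in wildtype cells, and Tgfbi was higher there. The sequences around the annotated starts of these genes are shown for description. Each runs from 250 bases before to 50 after the start, as RefSeq gives it on GRCm38.p6. A shared sign among genes picked by the interaction does not show that they are regulated together. Of the 5, 4 were matched in that table, all on the plus strand, and Hspa9 is named only. Capitals mark matches on either strand to the motifs searched.
Parp6, chr9:59617034-59617333: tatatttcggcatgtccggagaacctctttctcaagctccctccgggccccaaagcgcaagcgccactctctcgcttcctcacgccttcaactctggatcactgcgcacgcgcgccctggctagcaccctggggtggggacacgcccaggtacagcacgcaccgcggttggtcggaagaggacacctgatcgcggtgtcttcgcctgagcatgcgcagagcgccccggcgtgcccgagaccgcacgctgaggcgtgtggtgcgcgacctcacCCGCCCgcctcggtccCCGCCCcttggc
Suz12, chr11:79992856-79993155: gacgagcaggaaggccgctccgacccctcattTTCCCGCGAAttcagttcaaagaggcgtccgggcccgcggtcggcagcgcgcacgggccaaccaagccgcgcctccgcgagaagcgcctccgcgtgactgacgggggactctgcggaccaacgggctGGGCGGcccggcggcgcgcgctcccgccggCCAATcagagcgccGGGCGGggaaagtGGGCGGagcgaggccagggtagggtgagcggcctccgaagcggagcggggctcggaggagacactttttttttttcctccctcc
Ogfr, chr2:180589157-180589456: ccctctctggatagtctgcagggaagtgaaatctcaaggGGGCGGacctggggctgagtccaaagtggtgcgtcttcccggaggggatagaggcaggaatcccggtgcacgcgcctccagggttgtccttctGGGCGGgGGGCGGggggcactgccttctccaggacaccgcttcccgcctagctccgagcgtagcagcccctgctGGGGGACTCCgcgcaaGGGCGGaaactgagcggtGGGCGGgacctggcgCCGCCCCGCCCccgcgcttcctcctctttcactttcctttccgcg
Tgfbi, chr13:56609336-56609635: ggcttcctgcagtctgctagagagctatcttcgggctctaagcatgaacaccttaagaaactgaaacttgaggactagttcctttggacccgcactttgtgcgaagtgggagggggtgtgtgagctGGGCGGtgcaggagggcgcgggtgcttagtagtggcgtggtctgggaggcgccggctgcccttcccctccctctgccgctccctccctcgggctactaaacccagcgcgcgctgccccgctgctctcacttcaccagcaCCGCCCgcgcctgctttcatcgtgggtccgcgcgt
The GC box, GGGCGG, was in all 4 windows and in 35.9% of 27025 promoter windows of the same length. Parp6 held 2 matches, Tgfbi 2, Suz12 3 and Ogfr 7, some of which share bases. Suz12 also held CCAAT (37.9% of windows) and a STAT6 motif (6.99%), and Ogfr held an NF-kB motif (8.18%). AP-1 (TGANTCA, 7.93%), the other STAT spacing (TTCNNNGAA, 8.47%), ETS (CCGGAAG, 9.12%), TATAAA (14.2%) and CACGTG (7.24%) had no match in the 4 windows. A match describes the letters of the window and not a site in use.

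Parp6 encodes a member of the PARP family, enzymes that attach ADP-ribose to proteins. In marrow its values were 0.01, -0.01 and 0.11 in wildtype cells and 0.07, 0.19 and 0.15 in knockout cells. In the esophagus they were -1.11, -0.98 and -1.12 in wildtype cells and 0.56, 0.77 and 0.84 in knockout cells. The 3 wildtype esophageal arrays were the lowest of the 12 and the 3 knockout esophageal arrays the highest, while the marrow groups overlapped. The interaction was 1.69 ± 0.12 (SE, n = 3 arrays in each of 4 groups, limma adjusted p = 0.000994). Knockout exceeded wildtype by 1.79 ± 0.08 in the esophagus (adjusted p = 1.91e-05) and by 0.10 in marrow (adjusted p = 1). The esophagus minus marrow difference of Parp6 was -1.10 in wildtype cells (adjusted p = 1.96e-05) and 0.58 in knockout cells (adjusted p = 0.000999).

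Suz12 encodes a core subunit of PRC2, the Polycomb complex that methylates histone H3. Its marrow values were 0.13, 0.06 and 0.27 in wildtype cells and 0.37, 0.01 and 0.14 in knockout cells. Its esophageal values were -2.24, -1.80 and -1.97 in wildtype cells and -0.42, -0.28 and -0.44 in knockout cells. Both esophageal groups lay below every marrow array, the wildtype group much further below. The interaction was 1.60 ± 0.18 (adjusted p = 0.0273), made of 1.62 ± 0.12 in the esophagus (adjusted p = 0.000977) and 0.02 in marrow.

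Hspa9 encodes mortalin, the mitochondrial HSP70 chaperone that draws proteins into the mitochondrion. It read 0.17, 0.23 and 0.21 in wildtype marrow and 0.22, 0.15 and 0.06 in knockout marrow. In the esophagus it read -1.63, -1.79 and -2.23 in wildtype and -0.53, -0.28 and -0.32 in knockout. The order of the groups was that of Suz12, with both esophageal groups below the marrow and no overlap between them. The interaction was 1.57 ± 0.19 (adjusted p = 0.0427), with 1.51 ± 0.14 in the esophagus (adjusted p = 0.00259) and -0.06 in marrow.

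Ogfr encodes the opioid growth factor receptor, a nuclear-associated protein that binds met-enkephalin and restrains cell growth. Its marrow values were 0.39, 0.06 and 0.31 in wildtype cells and -0.41, 0.00 and -0.02 in knockout cells. Its esophageal values were -0.58, -0.43 and -0.63 in wildtype cells and 0.88, 0.58 and 0.62 in knockout cells. Knockout was wholly below wildtype in marrow and wholly above it in the esophagus. The interaction was 1.64 ± 0.19 (adjusted p = 0.0336), from 1.24 ± 0.13 in the esophagus (adjusted p = 0.00686) and -0.39 in marrow (adjusted p = 1).

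Tgfbi encodes a secreted matrix protein that is induced by TGF-beta and binds integrins. In marrow it read 0.01, -0.01 and -0.03 in wildtype and -0.12, -0.31 and -0.26 in knockout. In the esophagus it read 0.83, 0.66 and 0.84 in wildtype and 1.79, 1.83 and 1.80 in knockout. As for Ogfr, the genotypes lay apart in opposite directions in the 2 tissues, and Tgfbi was the only called gene above its marrow values in wildtype esophagus. The interaction was 1.25 ± 0.10 (adjusted p = 0.00169), from 1.03 ± 0.07 in the esophagus (adjusted p = 0.000395) and -0.22 in marrow (adjusted p = 1). Its step from marrow to esophagus was 0.79 in wildtype cells (adjusted p = 6.12e-05) against 2.04 in knockout cells (adjusted p = 6.16e-08). Ogfr and Tgfbi were the 2 called genes whose differences in the tissues had opposite signs, each at an unadjusted p under 0.05. Over all genes 30 had this (0.135%), and 10 of the 782 positive genes did (1.28%). Opposite signs enlarge the interaction by which the genes were chosen, so this describes them and is not a test.

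Arrays of the 2 genotypes lay wholly apart in the esophagus for all 5 called genes, with knockout above wildtype. Over all genes 23.3% lay apart in the esophagus, 5.67% with knockout above and 17.6% with knockout below. In marrow 2 of the 5 lay apart, both with knockout below, where 11.7% of all genes did, 4.11% with knockout above and 7.62% below. The 5 genes were chosen by an interaction made of these same differences, so their separation describes them and is not a test.

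**Figure D2:**
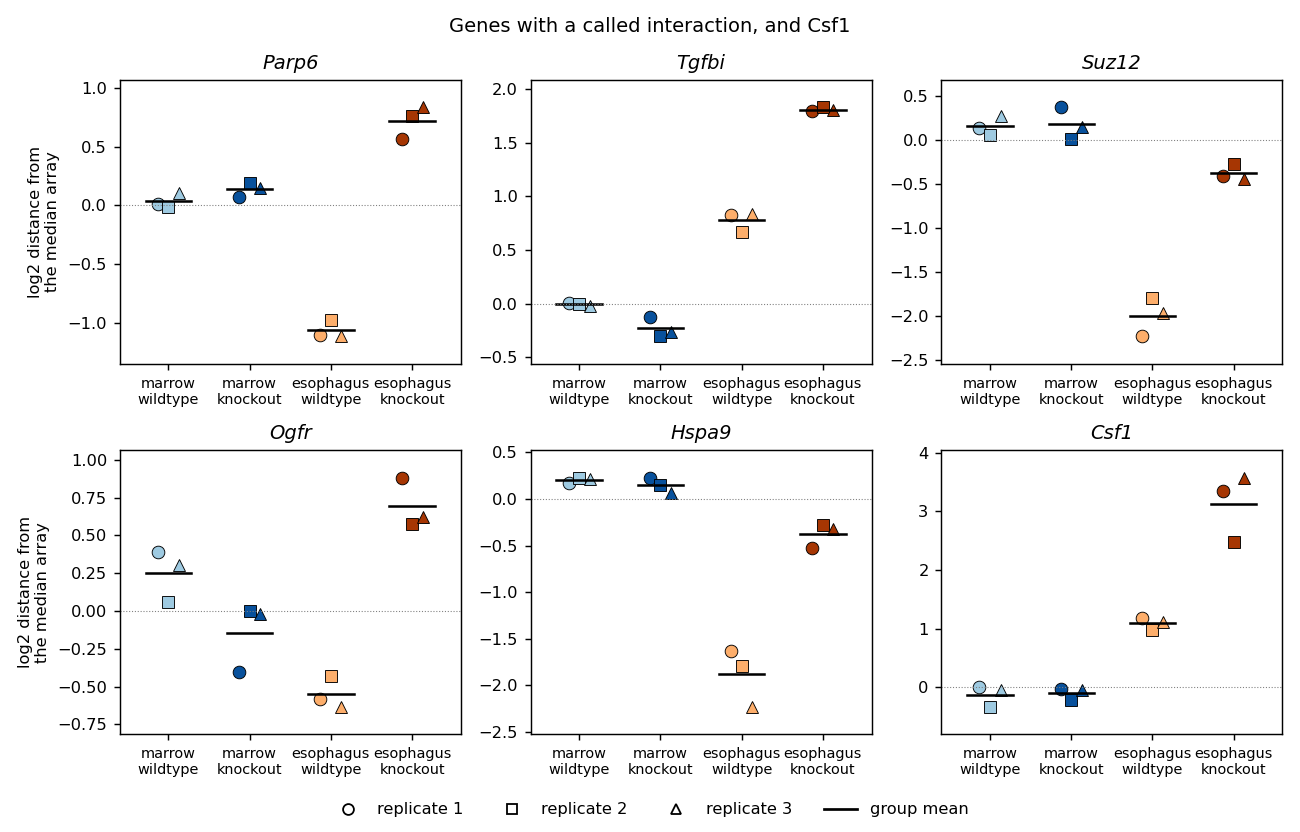
Points are single arrays with Dox, by tissue and genotype, for the 5 genes with a called interaction and for Csf1, whose interaction did not pass (adjusted p = 0.125). The vertical axes are log2 distances from the centre of the gene, labelled as the median array, with a scale for each gene. Bars are means of 3 arrays. In Parp6, Suz12, Ogfr and Hspa9 the wildtype esophageal arrays are the lowest of the 12. In Tgfbi and Csf1 both esophageal groups lie above the marrow.

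Parp6 and Tgfbi passed whichever of the 12 arrays was left out, with adjusted p up to 0.00847 and 0.0142. Suz12 and Ogfr each passed in 5 of these 12 fits and Hspa9 in 3, with adjusted p up to 0.110, 0.111 and 0.176. Suz12 lost its call without any wildtype marrow array, knockout marrow replicate 2 or 3, or knockout esophagus replicate 1 or 2. Ogfr lost its call without wildtype marrow replicate 1 or 3, knockout marrow replicate 2 or 3, wildtype esophagus replicate 3, or knockout esophagus replicate 1 or 2. Hspa9 lost its call without any 1 of the marrow arrays or of the knockout esophageal arrays. Leaving out wildtype esophagus replicate 1 gave 207 called genes, 160 positive and 47 negative, with all 5 among them. Of the 89 other genes chosen to be named, which did not pass on all 12 arrays, 22 passed there, 15 positive and 7 negative. That array was singled out for correlating more with the knockout arrays than with its own group. Leaving it out tends to widen the esophageal genotype difference or narrow the wildtype spread. Passes without it, here and below, are therefore not independent support. Leaving out wildtype esophagus replicate 2 gave 17 called genes, wildtype esophagus replicate 3 gave 10 and knockout esophagus replicate 3 gave 18. The fewest were 2, without wildtype marrow replicate 1 or 3, knockout marrow replicate 3 or knockout esophagus replicate 1, and knockout marrow replicate 2 gave 3.

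**Figure D3:**
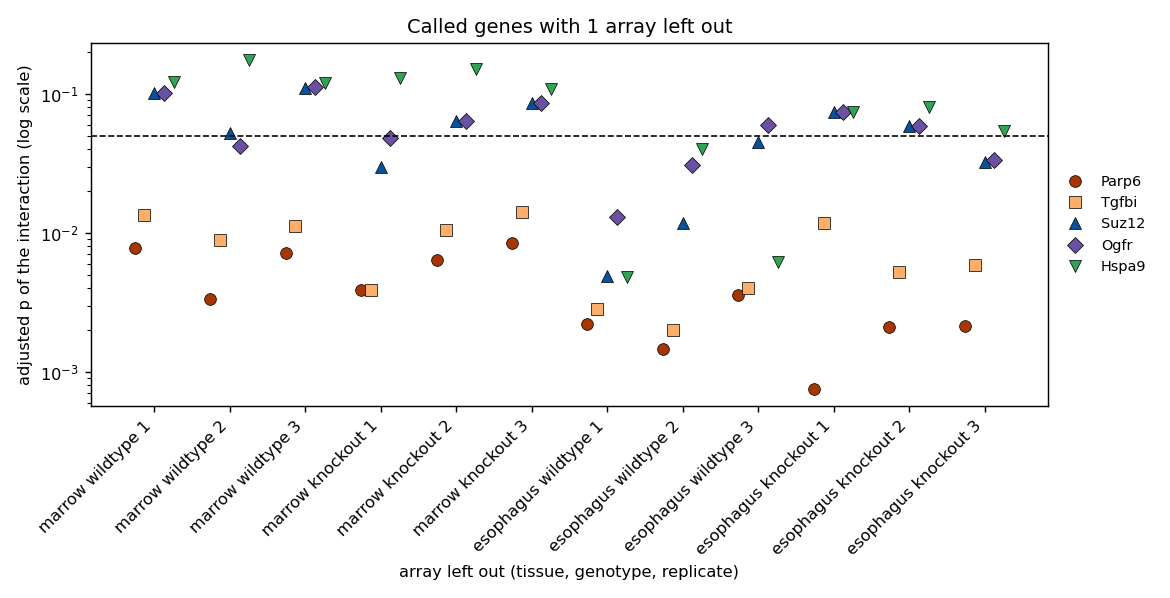
Adjusted p of the interaction (log scale) for the 5 called genes when 1 array is left out, with the array named by tissue, genotype and replicate on the horizontal axis. The dashed line is the threshold of 0.05. Parp6 and Tgfbi lie below it in all 12 fits, Suz12 and Ogfr in 5 and Hspa9 in 3.

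Wildtype esophagus replicate 1 lay nearer the knockout esophageal mean than the mean of the other 2 wildtype esophageal arrays in 26.3% of the 782 positive genes, in 34.2% of the 1197 negative genes and in 62.5% of all genes. In the 5 called genes it lay with the other wildtype arrays. The positive, negative and called genes were chosen on these same arrays by a p that favours close arrays within a group. The lower shares therefore follow in part from that choice and do not clear the array. One array outside the comparison, replicate 3 of knockout marrow without Dox, also read low for many positive genes, with a value below -1 in 281 of the 782 (35.9%), in 4.18% of the negative genes and in 9.50% of all genes. It read -1.33 for Parp6, -1.14 for Tgfbi, -0.01 for Suz12, -1.20 for Ogfr and -3.05 for Hspa9. The part of whatever sets that array apart in the result was not tested. With the mean of 3 Y-linked genes as a covariate for sex, which no label gives, 2 genes passed, Parp6 (adjusted p = 0.000877) and Tgfbi (adjusted p = 0.0166). After quantile normalization 0 genes passed in limma, with Parp6 at an adjusted p of 0.0544.

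The next 5 genes by p among the positive interactions did not pass, and in Ogfrl1, Snrpd3 and Pds5b the esophageal means of both genotypes lay below those of marrow, as for Suz12. Ogfrl1, a homolog of Ogfr, read 0.48, 0.11 and -0.08 in wildtype marrow, 0.39, 0.08 and 0.67 in knockout marrow, -3.50, -3.64 and -3.47 in wildtype esophagus, and -1.37, -1.27 and -1.68 in knockout esophagus. Its marrow groups overlapped and its esophageal groups were the lowest and far apart from each other. The interaction of Ogfrl1 was 1.89 ± 0.25 (adjusted p = 0.0785). Snrpd3, a core protein of the spliceosomal small nuclear particles, read 0.17, 0.35 and -0.03, then 0.18, 0.22 and 0.20 in marrow, and -3.20, -2.87 and -3.80, then -0.42, -1.16 and -0.89 in the esophagus, wildtype first. It showed the same order of groups, with an interaction of 2.43 ± 0.33 (adjusted p = 0.0792).

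Etnk1, an ethanolamine kinase of phospholipid synthesis, had an interaction of 2.39 ± 0.35 (adjusted p = 0.107). Its wildtype esophageal arrays read -2.03, -2.27 and -1.60, and its knockout esophageal arrays, at 0.83, 0.15 and 0.41, lay within the range of marrow. Pds5b, which regulates the cohesin ring on chromosomes, had 1.77 ± 0.26 (adjusted p = 0.107). Capns2, a small calpain subunit, had 0.96 ± 0.15 (adjusted p = 0.121) and, like Tgfbi, was higher in the esophagus in both genotypes, with means of 0.32 in wildtype and 1.18 in knockout. The genotype difference within the esophagus passed for each of these 5 genes, with adjusted p between 0.00201 and 0.0105, and their marrow differences ran from -0.10 to 0.20. Without wildtype esophagus replicate 1 the interaction passed for all 5, with adjusted p between 0.0208 and 0.0313.

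Among the 10 negative genes named by p, the marrow difference was the larger part in Tmem141, Pcbd1 and H2ac21, and none passed in marrow. In the others the esophageal difference was larger, and 78.2% of the 1197 negative genes had a difference in the esophagus alone. Tmem141, a small membrane protein, read 0.30, -0.04 and -0.14 in wildtype marrow and 0.88, 1.31 and 1.16 in knockout marrow. In the esophagus it read -0.02, 0.27 and 0.34 in wildtype and -0.41, -0.23 and -0.07 in knockout. Knockout lay wholly above wildtype in marrow and wholly below it in the esophagus. The interaction was -1.51 ± 0.22 (adjusted p = 0.107), from 1.08 in marrow (adjusted p = 0.198) and -0.43 in the esophagus (adjusted p = 0.146), none of which passed.

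Pcbd1 encodes a dehydratase that recycles the tetrahydrobiopterin cofactor and also binds the transcription factor HNF1. It read -0.01, 0.21 and -0.12 in wildtype marrow and 1.53, 1.01 and 1.84 in knockout marrow, against -0.25, 0.20 and -0.01 in wildtype esophagus and -0.26, -0.21 and -0.24 in knockout esophagus. Only the knockout marrow arrays stood apart. The interaction was -1.65 ± 0.27 (adjusted p = 0.125), with a marrow difference of 1.44 (adjusted p = 0.198). H2ac21, a histone H2A gene, had an interaction of -0.71 ± 0.13 (adjusted p = 0.218), of which 0.60 was the marrow difference.

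Trub1, a pseudouridine synthase of tRNA, differed by 0.34 in marrow and -0.49 in the esophagus, with an interaction of -0.82 ± 0.13 (adjusted p = 0.121). C1qb, a chain of complement C1q that macrophages make, read 0.08, 0.10 and 0.18 in wildtype and 0.35, 0.42 and 0.10 in knockout marrow, and -0.12, 0.06 and -0.06 in wildtype and -0.56, -0.65 and -0.75 in knockout esophagus. The knockout esophageal arrays were the lowest of the 12, and the marrow groups overlapped. Its interaction was -0.78 ± 0.13 (adjusted p = 0.142). Clec4a1, a C-type lectin receptor of myeloid cells, read 0.64, -0.45 and 0.31 in wildtype and -1.66, -1.80 and -1.47 in knockout esophagus, while both marrow groups lay between 0.31 and 0.75. The knockout esophageal arrays were the lowest, wildtype esophagus replicate 2 lay between them and the other arrays, and the interaction was -1.78 ± 0.33 (adjusted p = 0.213).

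The other negative genes named by p were Shf, an adaptor with an SH2 domain (-0.70, adjusted p = 0.143), Smc6, of the SMC5/6 complex of DNA repair (-0.66, adjusted p = 0.267), the noncoding RNA gene Snhg20 (-0.70) and Styk1, a kinase-like membrane protein (-0.74, adjusted p = 0.273 for both). In these 4 the esophagus carried the larger part, with differences of -0.55, -0.50, -0.77 and -0.63 in knockout. Without wildtype esophagus replicate 1, 7 of the 10 negative genes named by p passed, with adjusted p between 0.0068 and 0.0494: Styk1, Trub1, Tmem141, Shf, Pcbd1, C1qb and Clec4a1.

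Retnla, which encodes RELM-alpha, a secreted protein strongly induced by IL-4 and IL-13 through STAT6, had a positive interaction that came from marrow. It read 1.68, 0.55 and 0.86 in wildtype and -0.59, -1.33 and -0.55 in knockout marrow, and 2.98, 3.15 and 2.96 in wildtype and 2.73, 3.00 and 2.85 in knockout esophagus. The marrow genotypes lay wholly apart, and the esophageal genotypes overlapped above both. The interaction was 1.69 ± 0.39 and did not pass (adjusted p = 0.317), with -1.86 in marrow (adjusted p = 0.198) and -0.17 in the esophagus. Its step from marrow to esophagus was 1.996 in wildtype cells (adjusted p = 0.000975) against 3.68 in knockout cells (adjusted p = 1.79e-05). Without Dox the marrow arrays read -3.57 and -2.82 in wildtype and -3.71, -1.37 and -3.55 in knockout, below every marrow array with Dox, by little for the knockout array at -1.37.

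**Figure D4:**
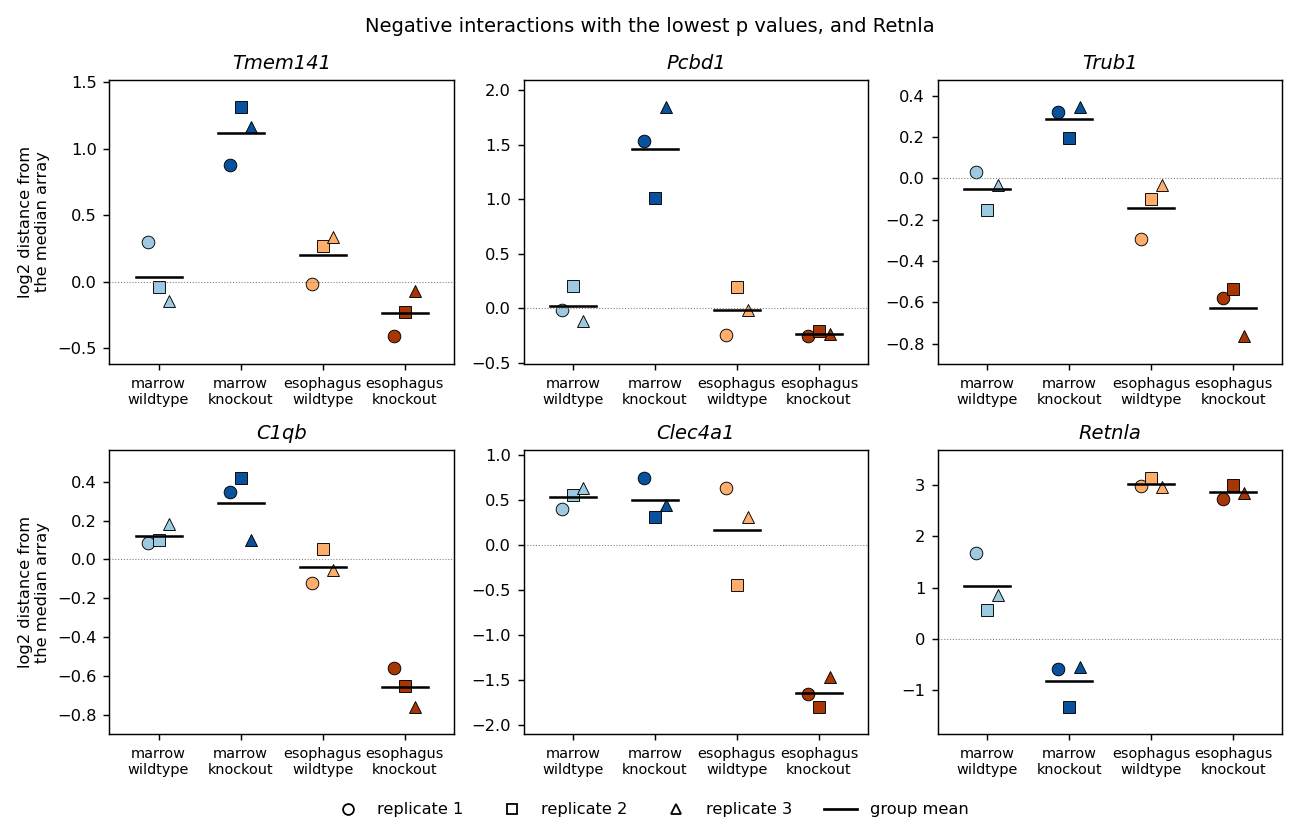
Points are single arrays with Dox for 5 of the 10 negative interactions with the lowest p, and for Retnla, whose interaction is positive; none of the 6 passed. The vertical axes are log2 distances from the centre of the gene, labelled as the median array, with a scale for each gene. Bars are means of 3 arrays. Tmem141 and Pcbd1 are high in knockout marrow, Retnla is low there, C1qb and Clec4a1 are low in knockout esophagus, and Trub1 shows both.

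Pirb itself, the deleted gene, read -0.21, -0.55 and 0.01 in wildtype marrow, -0.01, -0.79 and -0.39 in knockout marrow, 2.17, 0.75 and 0.92 in wildtype esophagus, and 0.77, 1.20 and 1.02 in knockout esophagus. The genotypes overlapped in both tissues. The interaction was -0.13 ± 0.49, with a 95% interval from -1.22 to 0.95, and an exact permutation test over 400 arrangements of genotype within tissue gave p = 0.855 (two-sided, smallest possible 0.005). No source used here places the Pirb probes inside or outside the deleted part, so these values do not check the genotype labels.

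Several genes whose esophageal difference an earlier analysis of these arrays had reported had large interactions that did not pass. Csf1, the growth factor of macrophages, had 2.02 ± 0.33 (adjusted p = 0.125). It read 1.18, 0.98 and 1.12 in wildtype and 3.34, 2.48 and 3.58 in knockout esophagus, and between -0.33 and 0.01 in all 6 marrow arrays, so the esophageal genotypes lay apart and the marrow genotypes did not. Adamdec1, a secreted metalloprotease, had 2.44 ± 0.42 (adjusted p = 0.146), with wildtype esophagus at 2.19, 1.08 and 0.71 and knockout esophagus at 3.35, 3.39 and 3.56. The wildtype array nearest the knockout group was replicate 1. Ikzf2, the transcription factor Helios, had 2.39 ± 0.48 (adjusted p = 0.273), and there too replicate 1, at 0.61, was nearest among wildtype values of 0.61, -0.49 and -0.93. Leaving out wildtype esophagus replicate 1, the wildtype array most like the knockout ones, tends to widen the genotype difference or narrow the wildtype spread. Without it the interaction passed for Csf1 (2.06, adjusted p = 0.0422), Adamdec1 (2.87, adjusted p = 0.0018) and Ikzf2 (2.83, adjusted p = 0.0059). Genes of the lists that passed there, beside these and those named by p, were Tlr6, Pecam1 (2.08, adjusted p = 0.0123), Psma1 (0.84, adjusted p = 0.0249), Tram1 (1.58, adjusted p = 0.0309), Selplg (1.67, adjusted p = 0.0354), Tpi1 (2.09, adjusted p = 0.0458) and Pmaip1 (2.01, adjusted p = 0.0458).

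Cxcl10, an interferon-inducible chemokine, had 1.11 ± 0.22 (adjusted p = 0.267), and Tnip3, which binds the NF-kB regulator A20, had 1.27 ± 0.36 (adjusted p = 0.396). Thbd, which encodes thrombomodulin, had -0.72 ± 0.17 (adjusted p = 0.318). Of the genes of the sort itself, Siglecf, an ITIM receptor of eosinophils, had 0.82 ± 0.23 (adjusted p = 0.394), and Ccr3, the eotaxin receptor, had 0.38 ± 0.26 (adjusted p = 0.678). For all 8 of these genes the marrow difference was at most 0.33 in size. A test passed in the esophagus and missed in the interaction does not show that the tissues differed or that they did not.

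Gene lists ordered by role gave few called members: 2 of the 5 called genes, Suz12 and Tgfbi, belonged to any of the 29 pathway lists. Counts of positive members are to be read beside the 35.4% of all genes that were positive and the overall median of -0.07. No member of any list had a called negative interaction (0%), and none was called between genotypes in marrow (0%).

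Among receptors listed as of the same kind as PIR-B and their phosphatases, 17 of 26 measured members were positive, with a median of 0.26 and 0 called. No measurement here shows which of them carry ITIM motifs. Clec4a1, which was negative against the positive median, had the lowest p in the list, followed by Siglecf, and both were given above. Members of the opposing arm, ITAM adaptors, Fc receptors and their first kinases, were positive in 16 of 21, with a median of 0.14. Lcp2, the adaptor SLP-76 below these receptors, had 0.88 ± 0.27 (adjusted p = 0.445), and Clec4e, the ITAM-coupled lectin Mincle, had 0.66 ± 0.22 (adjusted p = 0.477). Neither passed. Genes next to Pirb on chromosome 7 (27 measured, median 0.00) were led by the tRNA splicing subunit gene Tsen34 (-0.46) and by Tarm1, an activating receptor of myeloid cells (1.39).

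Chemoattractant receptors were positive in 13 of 21, with a median of 0.23. The receptor gene of platelet-activating factor, Ptafr, had 0.74 ± 0.24 (adjusted p = 0.465) and the leukotriene receptor gene Cysltr2 had -0.33. Integrins and selectin ligands were positive in 14 of 21, with a median of 0.23, which was -0.02 with the Y-linked covariate. Cd47, the ligand of SIRP-alpha, had 0.88 ± 0.25 (adjusted p = 0.407), and the P-selectin ligand gene Selplg had 1.31 ± 0.41 (adjusted p = 0.448). None of these passed.

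Chemokine ligands were positive in 7 of 24, with a median of -0.25, which was -0.02 with 11 of 24 positive under the Y-linked covariate, although the members with the lowest p, Cxcl10 and Ppbp, the platelet basic protein (1.63 ± 0.54, adjusted p = 0.478), were positive. Cytokines and growth factors were positive in 17 of 38, with a median of -0.06 and a range from -0.51 to 2.37. After Csf1, the lowest p was that of Tnf, a proinflammatory cytokine, at 2.37 ± 0.63 (adjusted p = 0.38). Tnf read -0.24, 0.41 and 1.10 in wildtype and 2.92, 1.30 and 2.70 in knockout esophagus, against -0.46 to 0.72 in marrow.

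Genes that answer signals fast had the highest median among the lists. Immediate-early genes were positive in 23 of 27, with a median of 0.48, the highest of the 29, from a median of 0.37 in the esophagus and -0.12 in marrow. Dusp5, a phosphatase that acts on ERK, had 0.58 ± 0.16 (adjusted p = 0.394), and Ier5 had 0.77 ± 0.24 (adjusted p = 0.445). No member passed. NF-kB subunits and feedback genes were positive in 19 of 28, with a median of 0.24, which was 0.03 with the Y-linked covariate. Beside Tnip3, Nfkbid, an atypical I-kappa-B protein, had 0.62 ± 0.20 (adjusted p = 0.446). Cells from the esophagus went through collagenase and marrow cells did not, in both genotypes, and the part of the release step in these genes was not tested.

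Cytokine responses were near the overall median. Receptors and STAT6 targets of IL-4 and IL-13 were positive in 15 of 29, with a median of 0.01 and a range from -1.63 to 1.69. Mrc1, the mannose receptor, had -1.14 ± 0.24 (adjusted p = 0.273), and Retnla was given above. Targets of IL-5 and GM-CSF through STAT5 were positive in 11 of 22, with a median of 0.06, led by the survival gene Mcl1 (0.41 ± 0.12, adjusted p = 0.407) and by Socs3, a feedback inhibitor of cytokine receptors (-0.54 ± 0.16, adjusted p = 0.416). Interferon-stimulated genes were positive in 12 of 27, with a median of -0.02, where Isg15, a ubiquitin-like protein, had 1.26 ± 0.44 (adjusted p = 0.48). Pattern recognition genes were positive in 13 of 23, with a median of 0.11. Tlr6, which pairs with TLR2, had 2.42 ± 0.61 (adjusted p = 0.367), and Tlr13, a sensor of bacterial RNA, had 1.41 ± 0.49 (adjusted p = 0.478).

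Tlr6 read 0.05, -1.83 and -1.73 in wildtype and 0.95, 0.69 and 0.09 in knockout esophagus. Wildtype replicate 1 was close to the lowest knockout array. Without that array the interaction of Tlr6 was 3.03 and passed (adjusted p = 0.00459).

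Granule and identity genes, the products that define eosinophils, were positive in 17 of 22, with a median of 0.25. After quantile normalization 13 of 22 were positive with a median of 0.09, and with the Y-linked covariate the median was 0.09 as well. Epx, the eosinophil peroxidase, had an interaction of 0.00 ± 0.17 with a 95% interval from -0.38 to 0.38. Its values were between 1.23 and 1.74 in the 6 marrow arrays and between -2.16 and -1.97 in the 6 esophageal arrays, far apart by tissue and overlapping by genotype. Prg2, the major basic protein, was lower in the esophagus too and more variable, with -2.32, -3.89 and -3.66 in wildtype and -1.78, -1.40 and -2.72 in knockout. The interaction of Prg2 was 1.34 ± 0.57 (adjusted p = 0.538). Serpinb1a, an inhibitor of granule proteases, had -1.37 ± 0.55 (adjusted p = 0.529).

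Lists of protein transport and secretion held no called gene. Vesicle traffic genes were positive in 29 of 38, with a median of 0.25, which was 0.13 after quantile normalization and 0.12 with the Y-linked covariate. Chm, a Rab escort protein, had 1.89 ± 0.50 (adjusted p = 0.379), and the SNARE gene Snap23 had 0.82 ± 0.25 (adjusted p = 0.432). Lysosome genes were positive in 19 of 25, with a median of 0.14 that was -0.02 with the Y-linked covariate, led by the cholesterol exporter gene Npc1 (0.44 ± 0.12, adjusted p = 0.379). Genes of endoplasmic reticulum translocation and folding were positive in 16 of 33, with a median of 0.00, which was -0.07 after quantile normalization and -0.10 with the Y-linked covariate. The spread was wide there, from -0.91 to 2.11. Tram1, of the translocation site, had 1.89 ± 0.36 (adjusted p = 0.218), and Atf6, a sensor of unfolded protein, 2.11 ± 0.47 (adjusted p = 0.311). Lipid mediator enzymes were positive in 9 of 18, with a median of 0.00, where Acsl4, which activates arachidonic acid, had 0.91 ± 0.32 and Hpgd, which inactivates prostaglandins, had -0.93 ± 0.34 (adjusted p = 0.478 and 0.509).

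Coagulation and matrix genes held Tgfbi and were otherwise mixed, with 18 of 29 positive and a median of 0.11. Polycomb and chromatin regulators held Suz12, with 20 of 27 positive and a median of 0.32, which was 0.11 after quantile normalization and 0.06 with the Y-linked covariate. The 4 other members with an unadjusted p under 0.05 were positive as well, and none passed. Over all genes 3.53% were positive at that level. The immediate-early, NF-kB and integrin lists held 5 such positive genes each and the myeloid transcription factors 6. The count was therefore not particular to these regulators. Myeloid and Ikaros-family transcription factors were positive in 17 of 30, with a median of 0.17. After Ikzf2 the lowest p was that of Irf2, an interferon regulatory factor, at 2.09 ± 0.58 (adjusted p = 0.394).

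Glycolysis and hypoxia genes were positive in 21 of 27, with a median of 0.28. Tpi1, the triosephosphate isomerase, had 1.82 ± 0.42 (adjusted p = 0.317), and Pfkfb3, which makes the activator of phosphofructokinase, had 0.72 ± 0.18 (adjusted p = 0.344). Oxidative phosphorylation genes were positive in 18 of 29, with a median of 0.09, with Ndufv2 of complex I at -1.0 ± 0.34 and Sdhb of complex II at 0.54 ± 0.23 (adjusted p = 0.478 and 0.538). Redox genes were positive in 14 of 22 (median 0.08), with superoxide dismutase gene Sod1 at 0.51 ± 0.14 and the quinone reductase gene Nqo1 at 0.40 ± 0.12 (adjusted p = 0.396 and 0.418). None of these passed.

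Survival, growth and housekeeping lists lay on both sides of 0. Apoptosis and survival genes were positive in 10 of 22, with a median of -0.01, and Pmaip1, the death-promoting protein Noxa, had 1.82 ± 0.37 (adjusted p = 0.273). Cell cycle genes were positive in 11 of 34, with a median of -0.14, which was -0.33 after quantile normalization and -0.21 with the Y-linked covariate. Kif22, a mitotic kinesin, had -0.61 ± 0.16 (adjusted p = 0.38), and Ccne1, cyclin E1, had -0.44 ± 0.14 (adjusted p = 0.472). Proteasome genes were positive in 16 of 27 (median 0.10), with Psma1 at 1.06 ± 0.23 (adjusted p = 0.295) and Psmd1 at -0.61 ± 0.16 (adjusted p = 0.379). Cytosolic ribosomal protein genes were positive in 15 of 28 (median 0.01), with Rps3 at 0.40 and Rpl6 at 0.71. Checkpoint ligands, antigen presentation and costimulation genes were positive in 14 of 24 (median 0.05), with Cd274, the ligand PD-L1, at 0.72 ± 0.26 (adjusted p = 0.504) and Tnfrsf9, the receptor 4-1BB, at -0.33 (adjusted p = 0.55).

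**Figure D5:**
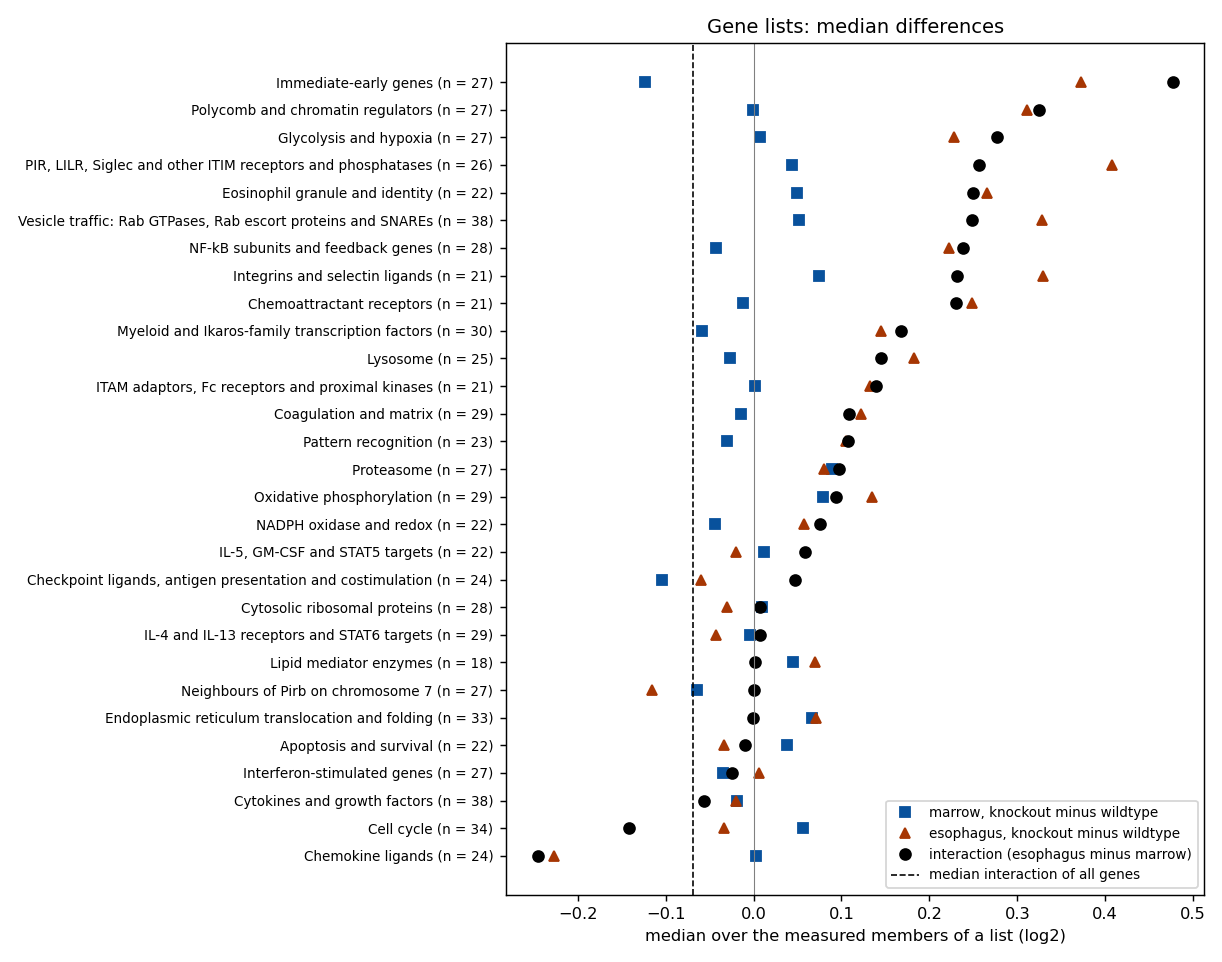
For each of 29 gene lists, the median over its measured members (n beside the name) of the knockout minus wildtype difference in marrow (blue squares) and esophagus (red triangles) and of the interaction (black circles), in log2 units. The dashed line is the median interaction of all genes, -0.07. Immediate-early genes are highest at 0.48 and chemokine ligands lowest at -0.25 in the values as deposited, while cell cycle genes are lowest after quantile normalization and with the Y-linked covariate, and in most lists the interaction follows the esophageal difference.

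Of the 29 medians, 23 were above 0 and 27 above the median of all genes. Centring each array on its median moved the overall median from -0.07 to -0.004 and the share of positive genes from 35.4% to 49%, and quantile normalization moved them to -0.007 and 48.5%. Under quantile normalization the median of immediate-early genes was 0.32 and that of chemokine ligands -0.15, while the medians of redox (-0.05), oxidative phosphorylation (-0.01), proteasome (-0.01), ribosomal protein (-0.02), STAT6 (-0.07), lipid mediator (-0.13) and interferon-stimulated genes (0.04) changed sign. Lists with a reported median above 0.1 whose quantile-normalized median was more than 1.5 times smaller also included the receptors of the same kind as PIR-B (0.16), ITAM adaptors (0.05), chemoattractant receptors (0.08), integrins (0.04), glycolysis (0.16), pattern recognition (0.01) and myeloid transcription factors (0.07). With the Y-linked covariate the receptors of the same kind as PIR-B had 0.12 and the ITAM adaptors 0.06, and the medians of cytokine (0.04), interferon-stimulated (0.09), redox (-0.05), STAT6 (-0.05), lipid mediator (-0.03) and checkpoint genes (-0.08) and of the genes next to Pirb (-0.05) changed sign, beside the integrin and lysosome lists. Median centring turned the medians of apoptosis (0.06), cytokine (0.01), endoplasmic reticulum (0.06) and interferon-stimulated genes (0.04) positive.

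Markers of the cells that a sort could hold beside eosinophils were set out by group as the mean over the measured markers of a type. Eosinophil markers lay between 0.14 and 0.36 in wildtype marrow, 0.12 and 0.40 in knockout marrow, -0.82 and -0.34 in wildtype esophagus, and -0.30 and 0.10 in knockout esophagus. By this mean the esophageal arrays were below the marrow arrays and apart by genotype. Single markers went both ways: esophagus minus marrow in wildtype was -3.50 for Epx and -3.53 for Prg2. For the sort markers it was 0.32 for Siglecf (adjusted p = 0.147) and 0.64 for Ccr3 in wildtype, and 1.14 and 1.02 in knockout. The mean therefore does not give the share of eosinophils. Of the 10 markers, 8 had a positive interaction with 0 called. Their median interaction was 0.34, and 0.07 with 6 of 10 positive after quantile normalization. Neutrophil markers lay between 0.04 and 0.41 in marrow and between -3.90 and -2.88 in the esophagus, where the genotypes overlapped. Their own median interaction was 0.09, and -0.14 after quantile normalization. Among them Elane, the neutrophil elastase, had an interaction of -0.57 ± 0.13 (adjusted p = 0.311) and Ltf, lactoferrin, 0.72 ± 0.17 (adjusted p = 0.317).

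Macrophage markers lay between 0.13 and 0.46 in marrow, -0.07 and 0.32 in wildtype esophagus and -0.31 and -0.15 in knockout esophagus. They were apart by genotype in the esophagus, with 6 of 9 interactions negative and a median of -0.30. Over all genes 14335 of 22180 were negative, a share near that of these markers, and the median was -0.07. At an unadjusted p under 0.05, 3 markers were negative, among them C1qb and Mrc1, where 5.4% of all genes were. How often the means of other sets of genes lie apart was not tested. Mast cell and basophil markers had a median interaction of -0.05 over 7 genes, with Mcpt8, a basophil protease, at -0.36 and Fcer1a, the IgE receptor chain, at 0.23. T and NK cell markers had -0.12 over 6, with Nkg7, a granule protein of killer cells, at -0.77 ± 0.23 (adjusted p = 0.432) and Cd3g, of the T cell receptor complex, at -0.91 ± 0.86. B cell markers had -0.24 over 4 genes, all negative, Pax5 and Cd79a at -0.47 and -0.29. None of these passed.

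Markers of tissue and dendritic cells had medians near 0, and those of endothelial and dendritic cells changed sign with the scaling. They were 0.00 over 6 epithelial genes (Krt13, a keratin of the esophageal lining, at 0.56 and Cdh1 at 0.47), 0.02 over 6 fibroblast genes (Col1a1 at -0.29 and Pdgfra at -0.24), -0.02 over 5 endothelial genes (Pecam1 at 1.51 and Cdh5 at -0.29) and -0.03 over 5 dendritic cell genes (Xcr1 at 0.25 and Zbtb46 at -0.09). The erythroid list had 2 measured genes, Car2 at -1.06 and Klf1 at -0.18. The values are centred, so whether a marker was near background is unknown, and the part of such cells in the interaction was not tested.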

How the data were processed

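Eosinophil RNA was purified with RNeasy, amplified with Nugen Ovation One-Direct, labelled with Nugen Encore Biotin and measured on 1-colour Affymetrix arrays, per the labels' protocols. The submitters' processing notes name Affymetrix Expression Console, without a version. The authors deposited log values for 33793 probe sets, taken here as log2; neither the log base nor a normalization between arrays is given in the sources used here. Each probe set is centred: 96.98% have an equal and opposite pair of values (tolerance 2e-05). A filter on dim probes needs brightness and was not applied.

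Probe sets with 1 gene symbol (23521; 1814 had several, 8458 none) gave 22180 genes, averaged where there were several (1082). By Entrez identifier 23328 matched GRCm38.p6 and no name changed. The 12 arrays with Dox, grouped by title, entered 1 fit of 4 group means in limma 3.58.1 (R 4.3.3, eBayes), two-sided, with Benjamini-Hochberg adjustment over all genes and a threshold of 0.05. With 12 arrays, 8 residual degrees of freedom set the precision. ± is the SE of that fit, and adjusted p-values are from it. Steps were tested on simulated data.

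The genes, 40 lists and tests were chosen with earlier results of these data known. Named were the called genes (at most 15 in a direction), those with the lowest p to fill 10 in a direction, Pirb and genes reported earlier, each list's called or 2 lowest-p members, and called genes of opposite sign in the tissues; gene models and Mir, Snor and Olfr genes were left out. Groups had no duplicate arrays (closest pair r = 0.832, at most 0.0207% of values identical). Across tissues, arrays of the same genotype and number deviated together at r = -0.0566 to 0.119, so replicate numbers were not taken to pair samples. Alternatives were the arrays used, normalization, weights, priors, probe sets, a sex covariate, replicate blocks, arrays left out and the marrow without Dox.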

Additional observations from a re-analysis of the deposited data

Results flagged for a closer look

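The genotype difference in the esophagus differed from that in marrow by a test of the difference itself for 5 genes. The interactions were 1.69 for Parp6, 1.64 for Ogfr, 1.60 for Suz12, 1.57 for Hspa9 and 1.25 for Tgfbi, in log2 units. In all 5 the 3 knockout esophageal arrays lay above the 3 wildtype ones. The 5 genes were chosen by an interaction made of these same values, so this is a description and not a test. In Ogfr and Tgfbi the 3 knockout marrow arrays lay below the 3 wildtype ones, and in the other 3 genes the marrow groups overlapped. Groups of 3 arrays are too small to look for outlying values by group.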

How the results depend on the processing

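The count of 5 interactions was 1 with all 17 arrays (Suz12), 12 with 16 (without knockout marrow replicate 3 without Dox; all 5 kept), 0 after quantile normalization and 2 with the Y-linked covariate. A replicate block by number gave 2 (Parp6 and Tgfbi) and a replicate block within genotype gave 0, although no label says that the numbers pair samples. Both blocks add terms and so leave fewer residual degrees of freedom, while the interactions kept their size (1.69 for Parp6 and 1.25 for Tgfbi). The part of this in the lost calls was not tested. The count was 2 to 207 with 1 array left out. It was 24 (4 of the 5 kept, all but Ogfr) against marrow without Dox less its knockout replicate 3. That setting was chosen after seeing the data. Median centring, weights per tissue or array, a robust prior and 1 probe set per gene gave 4 to 7, with 4 or 5 of the 5 kept. The full marrow without Dox gave 4, of which only Suz12 was among the 5, with Parp6 and Tgfbi at an adjusted p of 0.0608, Ogfr at 0.178 and Hspa9 at 0.180. The 369 genes of the esophagus were 77, 763, 1 and 9 under the first 4 of these settings, 48 with weights per tissue, 220 with the replicate block by number and 64 to 3653 with 1 array left out. The 0 genes of marrow became 0 to 1 with 1 array left out (without wildtype replicate 3 or knockout replicate 2) and stayed at 0 otherwise.

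Parp6, Tgfbi, Suz12, Ogfr and Hspa9 kept a positive sign in all 25 settings. Of 1128 values of the 94 named genes with 1 array left out, 1062 kept direction and side of the threshold, 32 passed newly, 23 no longer passed and 11 changed sign; of 1222 under the other settings these were 1156, 15, 28 and 23. No gene that changed sign had passed before or after. Quantile normalization gave Pirb 0.17, Ccr3 -0.0792, Epx -0.20, Dusp5 -0.00767 and Pdgfra 0.0192. Weights per array gave Epx -0.0158, and the Y-linked covariate Klf1 0.14. Marrow without Dox as reference gave Smc6 0.71, Pirb 0.12, Serpinb1a 0.0894, Retnla -0.49, Psmd1 0.25, Mcpt8 0.61, Fcer1a -0.10, Nkg7 0.16, Cd79a 0.0776 and Xcr1 -0.17. Without its knockout replicate 3 it gave Smc6 0.00841, Epx -0.59, Retnla -0.83, Fcer1a -0.25, Cd79a 0.215 and Cdh1 -0.0514. With 1 array left out Pirb ranged from -0.40 to 0.31, Epx from -0.12 to 0.14, Cd3g from -1.45 to 0.0330 and Klf1 from -0.345 to 0.00583. Groups of 3 arrays and an unknown signal over background limit all of these values.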

Other observations

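Marrow without Dox gives a second value for the knockout minus wildtype difference, from 2 wildtype and 3 knockout arrays of mice whose transgene was not switched on. There it was -0.57 for Parp6, -0.14 for Ogfr, -0.39 for Suz12, -1.18 for Hspa9 and -0.78 for Tgfbi. Without knockout replicate 3, which stands apart from its group, the values were -0.18, 0.31, -0.38, -0.15 and -0.54. The marrow difference of Tgfbi was thus negative with and without Dox, and the sign for Ogfr without Dox turned on that array. For the marrow-carried interactions, Pcbd1 differed by 0.66 without Dox, and 1.04 without that array, with knockout arrays at 0.39, 1.62 and -0.13 and wildtype arrays at 0.01 and -0.08. Tmem141 differed by 0.13 and 0.01, and Retnla by 0.32 and 0.66. None of these differences was tested by itself.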
